A study of Mus musculus with 2 samples.

Results

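Solute carriers are membrane proteins that move sugars, lactate, amino acids, metals, other ions and metabolites into cells, out of them and between their compartments, and their genes carry symbols that begin with Slc. The genes described here are those of the deposited mouse heart transcriptome matrix whose symbol starts with Slc and a digit and whose counts summed to at least 1000 over all cells, with Slc40a1 and Slc11a1 left out. They are 105 of the 31192 genes of the matrix and 105 of its 380 Slc rows, of which 107 reached 1000 counts. The members were selected on their summed count, so how much they were expressed over all cells is not a result. Just inside the threshold lay Slc39a6 with 1006 counts, Slc11a2 with 1040 and Slc35d2 with 1042, and just outside it Slc37a3 with 979, Slc12a9 with 963 and Slc20a2 with 960. The lactate carrier genes Slc16a1 (MCT1) and Slc16a7 (MCT2), the second with 804 counts, also fell outside.

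The cells came from Cdh5-CreERT2;REFLEX mice that were given tamoxifen and then underwent transverse aortic constriction, in which a band around the aorta overloads the heart with pressure. The Cre recombinase is driven by Cdh5, a gene of endothelial cells, and GFP marks cells labelled by the REFLEX system. CD45-negative and CD45-positive heart cells, each split into GFP-positive and GFP-negative cells, were sorted and pooled into 1 transcriptome library and 1 hashtag library. All cells therefore share the genotype, the tamoxifen and the operation, no unoperated heart was analysed here, and no source used here ties a tag in the cell names to a sorted fraction. With 1 pool there were no replicates, the cells of a class are not replicates, and no test was made.

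Of 878 cells, 857 were kept, with a median of 77171 estimated counts per cell over all cells and a range of 28407 to 706332. Clustering without any Slc gene gave 7 leukocyte classes named from marker lists. They were 274 neutrophil-like, 183 monocyte-like, 48 macrophage-like, 32 conventional dendritic-like, 163 B cell-like, 99 T cell-like and 27 NK cell-like cells. No cluster was named after endothelial cells, fibroblasts, mural cells or cardiomyocytes, and 31 cells stayed unnamed. Cells that the authors named doublet stayed in their classes, 32 of them neutrophil-like, and without such cells 18 members were again called higher in neutrophil-like cells. Median counts per cell were 64370 in neutrophil-like and 67644 in B cell-like cells but 162306 in monocyte-like cells and 264492 in macrophage-like cells. Levels are the summed counts of a class per 1000000 counts of that class (CPM). Ratios set a class against all other kept cells, and intervals are exact 95% intervals that cover counting error only.

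Leukocytes differ in how they fuel themselves. Neutrophils rely largely on glycolysis, take up glucose through GLUT carriers and export the lactate together with protons through monocarboxylate carriers. Amino acid exchangers pair a light chain with the CD98 heavy chain, encoded by Slc3a2, and activated cells exchange glutamate for cystine, take up glutamine and other neutral amino acids, and empty their lysosomes of amino acids through further carriers. Macrophages that clear dying cells and senescent red cells also handle large loads of metals and haem.

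By role, the 105 genes comprised 24 mitochondrial carriers, 19 carriers of amino acids and peptides, 13 of nucleotide sugars and other donors of the Golgi and endoplasmic reticulum, 12 of trace metals and 12 of inorganic ions. There were 8 for lipids, choline and organic ions, 5 for glucose and other sugars, 5 for nucleosides, vitamins and cofactors, and 2 for lactate and other monocarboxylates. The label does not hold for all of them: 3 were grouped as not transporters by role (Slc9a3r1, Slc7a6os and Slc4a1ap), and 2 were given no role (Slc22a14 and Slc36a3os, by its symbol an opposite-strand RNA). Those counted as mitochondrial carriers include Slc25a17, a peroxisomal carrier of cofactors, and Slc25a46, an outer membrane protein of mitochondrial dynamics.

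A gene was called higher in a class when its ratio, with 1 CPM added to both sides, was at least 2, and lower when it was at most 0.5. In neutrophil-like cells 18 members (17.1%) were called higher, against 10.5% of the 7701 genes with at least 1000 counts, and 41 (39.0%) lower, against 39.7%. In macrophage-like cells 14 members (13.3%) were higher against 6.71% of all genes, and 14 lower against 17.9%. With no cell left out, both classes thus held more of the higher calls than the background share. In monocyte-like cells 7 members (6.67%) were higher against 5.31%, and 10 (9.52%) lower against 14.1%, close to the background. With the top cell of each gene left out of the class, 7 members were higher and 28 lower in macrophage-like cells and 3 higher in monocyte-like cells. The cells set against the class were all kept, so this setting tends to lower ratios. All genes were not recounted under this or any other alternative setting, so counts under such settings have no background share.

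The lymphocytes went the other way. In T cell-like cells 0 members were called higher, against 13% of all genes, and 43 (41.0%) lower, against 24.0%. In B cell-like cells 12 (11.4%) were higher against 16.8%, and 32 (30.5%) lower against 22.1%. In NK cell-like cells 12 (11.4%) were higher against 17.8%, and 43 (41.0%) lower against 28.9%. Conventional dendritic-like cells had 4 (3.81%) higher against 5.1% and 37 (35.2%) lower against 24.7%. The dendritic count was 1 higher without the top dendritic-like cell of each gene, and 7 without cells named A951. It was 12 higher and 14 lower with the 31 unnamed cells counted in. The T cell-like count was 2 higher without cells named A951. In all, 59 members were higher in at least 1 named class and 7 of them in more than 1. The same counts were not made over all genes, so they have no background share.

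Each member also has 1 class of the 7 in which its level was highest. This was the macrophage-like class for 23 members (21.9%, against 12.5% of all genes), the neutrophil-like class for 22 (21.0% against 15.1%) and the NK cell-like class for 20 (19.0% against 23.8%). It was the B cell-like class for 15 members (14.3% against 18.7%), the monocyte-like class for 14 (13.3% against 8.77%) and the conventional dendritic-like class for 9 (8.57% against 7.58%). It was the T cell-like class for 2 members (1.90% against 13.7%). The highest class level was a median of 7.66 times the lowest over the members and 6.25 times over all genes tested.

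**Figure D1:**
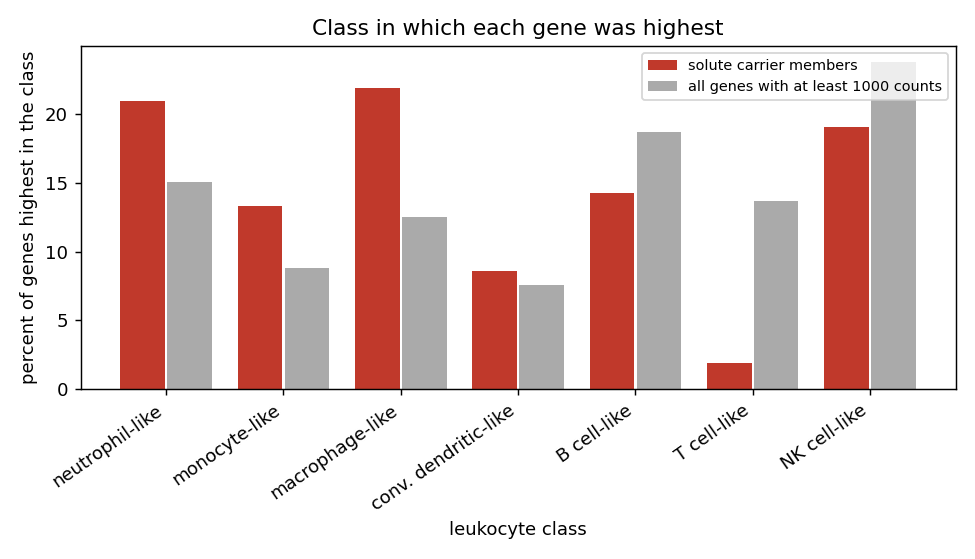
Percent of genes (vertical axis) whose CPM was highest in each leukocyte class (horizontal axis), for the 105 solute carrier members (red) and for all 7701 genes with at least 1000 counts (grey). The red bar stands above the grey one in neutrophil-like, monocyte-like, macrophage-like and conventional dendritic-like cells and below it in the 3 lymphocyte classes, most clearly in T cell-like cells (1.90% against 13.7%).

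The carriers of lactate and glucose set the neutrophil-like cells apart. Summed over both genes, the lactate group reached 1203 CPM in neutrophil-like cells, against 307 CPM in NK cell-like cells, the next class, and 81.8 CPM in conventional dendritic-like cells, the lowest. The glucose group summed to 508 CPM in neutrophil-like cells, against 235 CPM in B cell-like cells and 116 CPM in T cell-like cells. Both genes of the first group and 3 of the 5 glucose genes were called higher in neutrophil-like cells, against 10.5% of all genes.

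The stretches upstream of 3 of these genes are shown because the genes were high in the same cells and belong to pathways with known response elements. They are the 200 bases before the RefSeq transcription start in build GRCm38.p6, given 5′ to 3′ on the gene's own strand, at chr11:120948867-120949066 (plus strand) for Slc16a3, chr4:119108545-119108744 (plus) for Slc2a1 and chr3:50443614-50443813 (minus) for Slc7a11. Capitals mark the core of the hypoxia response element, ACGTG, in the first pair and the ATF4 element TGATGNAA, on either strand, in Slc7a11.
Slc16a3: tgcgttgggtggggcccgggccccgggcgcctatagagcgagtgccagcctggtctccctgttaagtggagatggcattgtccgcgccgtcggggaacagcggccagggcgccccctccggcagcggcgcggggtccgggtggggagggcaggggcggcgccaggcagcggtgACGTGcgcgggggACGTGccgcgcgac
Slc2a1: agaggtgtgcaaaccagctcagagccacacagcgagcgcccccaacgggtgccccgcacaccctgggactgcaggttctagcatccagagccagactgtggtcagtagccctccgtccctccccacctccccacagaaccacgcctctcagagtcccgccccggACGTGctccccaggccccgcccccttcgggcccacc
Slc7a11: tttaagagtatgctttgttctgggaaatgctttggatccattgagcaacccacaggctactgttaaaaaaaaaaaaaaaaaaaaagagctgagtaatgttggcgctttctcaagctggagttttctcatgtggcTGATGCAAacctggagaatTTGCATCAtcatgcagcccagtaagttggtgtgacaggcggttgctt

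Slc16a3 held 2 copies of ACGTG close to its start and Slc2a1 held 1, while Slc7a11 held 1 ATF4 element on each strand. ACGTG also occurs within the E-box CACGTG. Among all 32841 RefSeq windows of this length, 13.96% held ACGTG on either strand, 5.26% held CACGTG and 2.87% held TGATGNAA. Of the members 81 matched the RefSeq table, with 104 windows, of which 22 (21.15%) held ACGTG, 8 held CACGTG and 4 held TGATGNAA. Of the 18 members higher in neutrophil-like cells 14 matched, with 16 windows, of which 6 held ACGTG, 3 CACGTG and 1 TGATGNAA. The NRF2 element TGACNNNGC was also searched. It was in 8.605% of all windows, in 18 (17.31%) of the member windows and in 2 of the 16. These matches describe letters in a window and not sites in use. The promoter of Slc2a3 is named only.

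Slc16a3 encodes MCT4, the lactate exporter of glycolytic cells. Its level was 803 CPM in neutrophil-like, 150 CPM in monocyte-like, 45.6 CPM in macrophage-like, 16.3 CPM in conventional dendritic-like, 2.17 CPM in B cell-like, 6.74 CPM in T cell-like and 16.3 CPM in NK cell-like cells. The neutrophil-like level was 11 times that of all other cells at 73.0 CPM (10.7 to 11.3), and no cell held more than 1.69% of the class's Slc16a3 counts. Over single neutrophil-like cells the quartiles were 224 and 1186 CPM.

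With every cell thinned to 25000 counts, 240 of 274 neutrophil-like cells (87.6%, 83.1 to 91.3) held a count of Slc16a3, as did 63.9% of monocyte-like, 35.4% of macrophage-like and 6.13% of B cell-like cells. Before thinning the shares were 89.4%, 74.9%, 62.5% and 15.3% in the same order of classes. As a gauge of RNA carried between cells, the neutrophil gene S100a8 stood in B cell-like cells at 0.238% of its neutrophil-like level, and Slc16a3 there stood at 0.270%. In monocyte-like cells S100a8 stood at 1.13% and Slc16a3 at 18.7% of the neutrophil-like level. The part of carried RNA in these levels was not tested. Slc16a6, which encodes MCT7, a relative linked to ketone body export, was 400 CPM in neutrophil-like, 290 CPM in NK cell-like, 255 CPM in B cell-like and 65.5 to 121 CPM in the other named classes.

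Slc2a1 encodes GLUT1, the widely expressed glucose carrier. It was 151 CPM in neutrophil-like, 56.4 CPM in monocyte-like, 43.8 CPM in macrophage-like, 26.5 CPM in conventional dendritic-like, 39.8 CPM in B cell-like, 26.3 CPM in T cell-like and 25.7 CPM in NK cell-like cells. The ratio of neutrophil-like to all other cells was 3.39 (3.22 to 3.56). Slc2a3, for the high-affinity carrier GLUT3, was 156 CPM in neutrophil-like cells against 17.3 CPM in all other cells, a ratio of 9.04 (8.48 to 9.64). The other named classes lay between 4.56 CPM in monocyte-like and 32.5 CPM in NK cell-like cells, so none came near the neutrophil-like level.

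Slc2a6, for the lysosomal hexose carrier GLUT6, was 180 CPM in neutrophil-like cells against 39.1 CPM in all other cells, with conventional dendritic-like cells next at 99.6 CPM and T cell-like cells at 0.806 CPM. The remaining sugar genes had other leaders. Slc50a1, for the sugar carrier SWEET1, was 146 CPM in B cell-like and 126 CPM in NK cell-like cells but 11.8 CPM in neutrophil-like cells. Slc37a2, a sugar phosphate carrier of the endoplasmic reticulum, was 55.4 CPM in macrophage-like cells against 8.60 CPM in all other cells (ratio 6.44, 5.81 to 7.14).

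Neutrophil-like cells were also the highest class within each tag name. For Slc16a3, neutrophil-like cells had 806 CPM among cells named A951, 882 CPM in A952, 996 CPM in A953 and 575 CPM in A965, while monocyte-like cells had 133, 149, 198 and 164 CPM in the same tags. Neutrophil-like cells named A953, of which there were 19, stood above the other tags for Slc2a1 at 309 CPM against 120 to 165 CPM, for Slc2a3 at 330 CPM against 145 to 152 CPM and for Slc7a11 at 510 CPM against 199 to 300 CPM. In all 4 tags the neutrophil-like class was the highest for Slc16a3, Slc16a6, Slc2a1, Slc2a3, Slc2a6, Slc7a11 and Slc15a3 among the classes with at least 10 cells in that tag. No tag stands for a sorted fraction here.

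**Figure D2:**
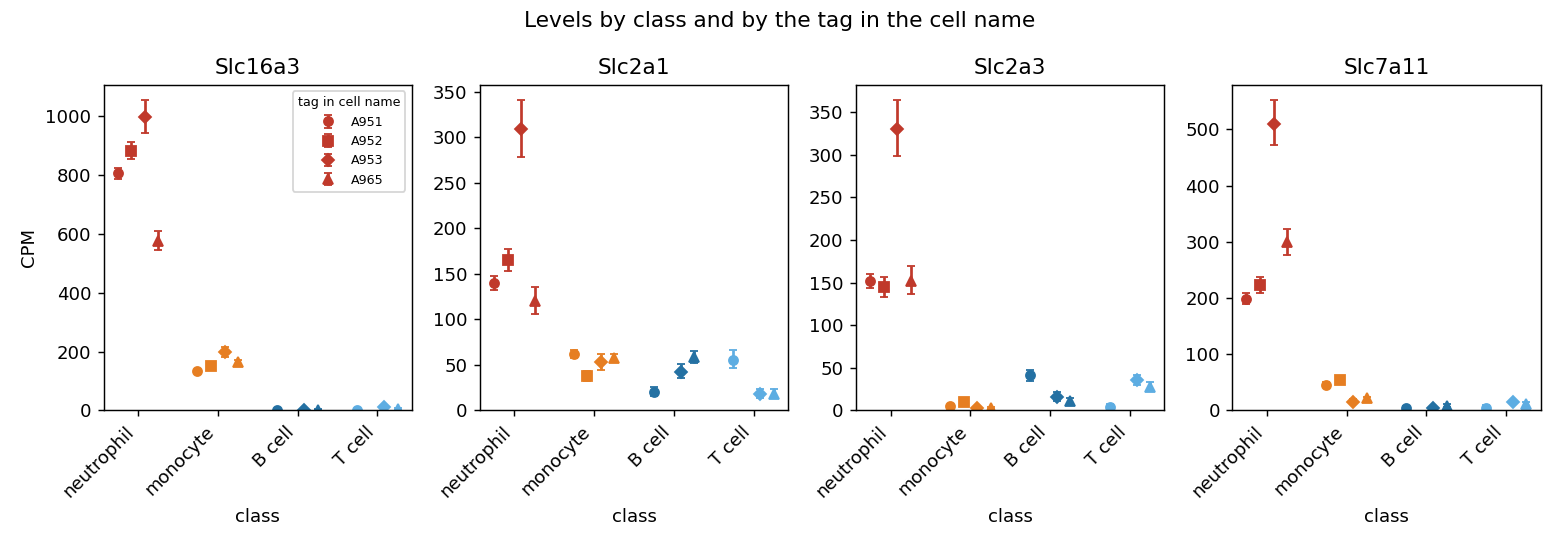
CPM (vertical axes, each from 0) of Slc16a3, Slc2a1, Slc2a3 and Slc7a11 by class (horizontal axes) and by the tag in the cell name (symbols), with exact 95% Poisson intervals. Tags with fewer than 10 cells in a class are not drawn. All 4 neutrophil-like points lie above every monocyte-like, B cell-like and T cell-like point of the same gene.

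Genes of the pathways around these carriers were counted from lists. The 18 glycolysis genes summed to 3604 CPM in neutrophil-like cells, below the 4592 CPM of macrophage-like and 3957 CPM of monocyte-like cells and above the 1196 CPM of B cell-like cells. Of 17 such genes with 1000 counts, 2 were higher and 2 lower in neutrophil-like cells, against 10.5% and 39.7% of all genes. The median log2 ratio of the 17 was -0.05. The higher ones were Hk3, a hexokinase, at 44.1 CPM against 14.2 CPM in all other cells, and Pfkfb4, which makes an activator of phosphofructokinase, at 79.7 CPM against 14.5 CPM. In B cell-like cells 14 of 17 were lower and 0 higher, against 22.1% and 16.8% of all genes. So the class with the most carrier RNA for glucose and lactate was not the class with the most glycolysis RNA.

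Of 8 genes listed for monocarboxylate carrier chaperones and the response to low oxygen, 4 were higher in neutrophil-like cells and 0 lower. Over all genes 10.5% were higher and 39.7% lower there. The median log2 ratio of the 8 was 0.97, against -0.63 over all genes tested. The 4 higher ones were Egln3, an oxygen-sensing hydroxylase, at 43.2 CPM against 3.90 CPM in all other cells, Bnip3, a mitophagy receptor, at 87.6 against 16.4 CPM, Ero1a, an oxidase of the endoplasmic reticulum, at 59.5 against 21.0 CPM, and Ankrd37 at 20.4 against 7.86 CPM. The chaperones peaked elsewhere. Bsg, the partner of MCT4, was 299 CPM in macrophage-like cells against 142 CPM in all other cells, and Emb was 910 CPM in T cell-like cells against 419 CPM.

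Markers of heart muscle moved with the neutrophil-like class: the 8 cardiomyocyte markers summed to 165 CPM there, with Tnnt2 highest at 54.6 CPM, and to between 19.1 and 27.6 CPM in the other named classes. The 7 fibroblast markers summed to 31.1 CPM there and to between 4.2 and 11.1 CPM in the others, and 0 genes of either list were at 0 in any class. Their part in the neutrophil-like levels was not tested. Slc8a1, the sodium-calcium exchanger that is abundant in heart muscle, was 17.1 CPM in neutrophil-like and 76.8 CPM in monocyte-like cells. Within monocyte-like cells it was 211 CPM in the cluster led by Cd300e and Ace and 26.4 CPM in the Ly6c2 cluster, both described below. The part of muscle RNA in these Slc8a1 levels was not tested.

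**Figure D3:**
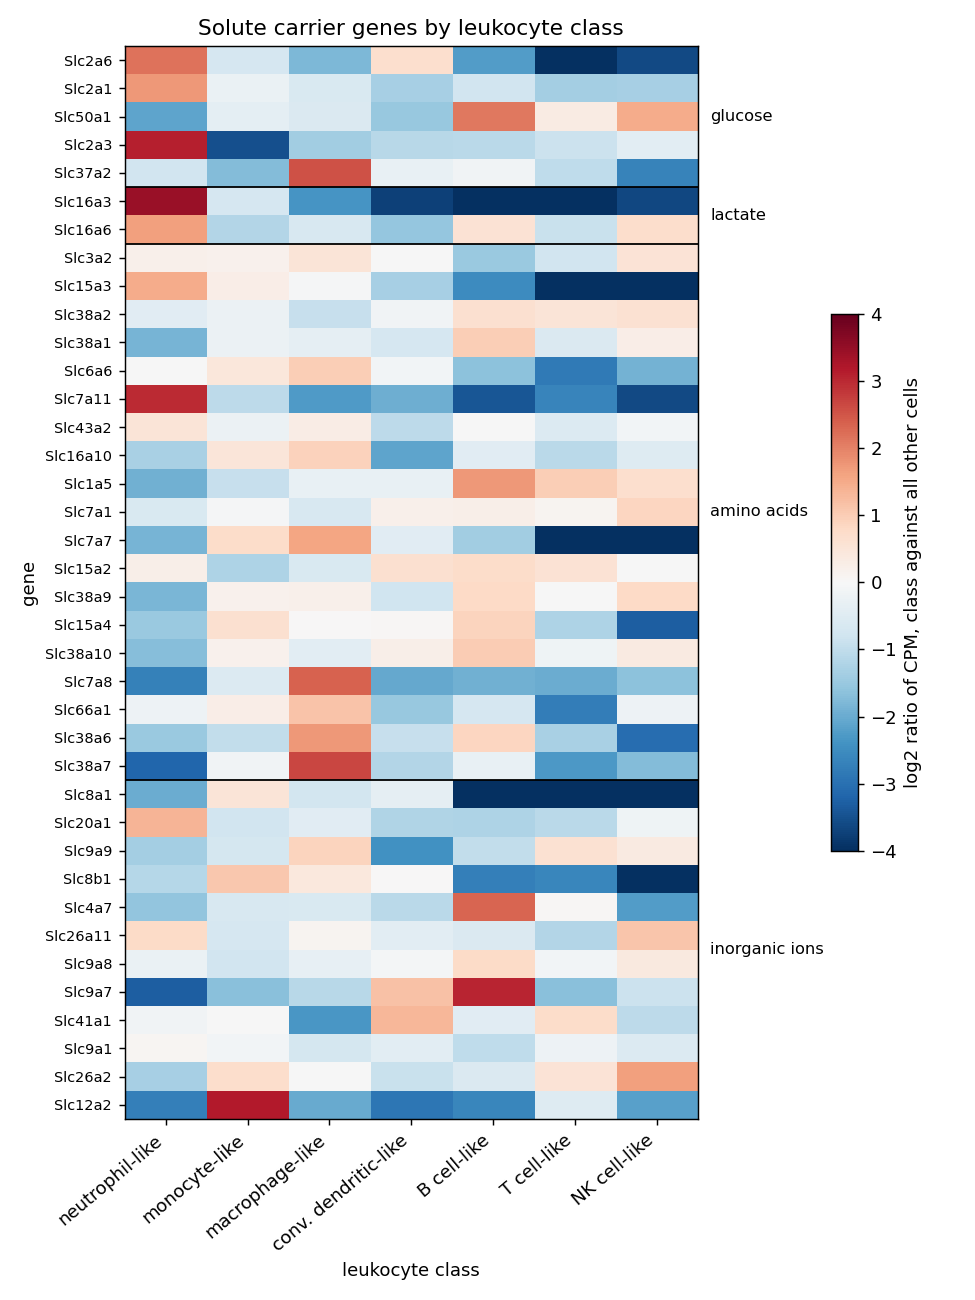
Log2 ratio of CPM (colour, 1 CPM added), class against all other kept cells, for the 38 carriers of glucose, lactate, amino acids and inorganic ions (rows, by group) in the 7 leukocyte classes (columns). Colours saturate at 4 in either direction. Neutrophil-like cells are red for Slc16a3, Slc16a6, Slc2a1, Slc2a3, Slc2a6 and Slc7a11, where the lymphocyte columns are mostly blue.

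The 19 carriers of amino acids and peptides summed to 1586 CPM in macrophage-like, 1493 CPM in neutrophil-like, 1351 CPM in monocyte-like, 1302 CPM in NK cell-like and 804 CPM in T cell-like cells. This small spread hid different genes. In macrophage-like cells 5 were higher and 1 lower, in neutrophil-like cells 2 higher and 10 lower, and in T cell-like cells 0 higher and 10 lower. Over all genes 6.71% were higher and 17.9% lower in macrophage-like cells, 10.5% higher and 39.7% lower in neutrophil-like cells and 24.0% lower in T cell-like cells. Slc3a2, the CD98 heavy chain that several exchangers share, varied little among most classes, with 646 CPM in NK cell-like, 605 CPM in macrophage-like, 499 CPM in neutrophil-like, 482 CPM in monocyte-like, 442 CPM in conventional dendritic-like, 273 CPM in T cell-like and 174 CPM in B cell-like cells. It was called lower in B cell-like cells and higher in no class.

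The light chains that pair with it split by class. Slc7a11, which encodes xCT of the cystine-glutamate exchanger, was 230 CPM in neutrophil-like, 38.2 CPM in monocyte-like, 14.6 CPM in macrophage-like, 17.7 CPM in conventional dendritic-like, 6.03 CPM in B cell-like, 10.7 CPM in T cell-like and 4.59 CPM in NK cell-like cells. The ratio of neutrophil-like to all other cells was 8.24 (7.83 to 8.67). Its promoter window is the one with the paired ATF4 elements above.

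Slc7a7, a light chain for the export of cationic amino acids, and Slc7a8, which encodes LAT2 for neutral amino acids, were highest in macrophage-like cells. Slc7a7 was 64.4 CPM there against 20.7 CPM in all other cells (ratio 3.10, 2.86 to 3.37). Monocyte-like cells were next at 36.9 CPM, and NK cell-like cells had 0.510 CPM. Slc7a8 was 43.0 CPM against 7.61 CPM (ratio 5.65, 5.04 to 6.32), and 1.43 CPM in neutrophil-like cells.

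Lysosomal carriers were divided in the same way. Slc38a7, a lysosomal exporter of glutamine and asparagine, was 44.4 CPM in macrophage-like cells against 6.20 CPM in all other cells (ratio 7.16, 6.36 to 8.06) and 0.635 CPM in neutrophil-like cells. Slc66a1, a lysosomal exporter of cationic amino acids, was 23.1 CPM in macrophage-like cells against 9.97 CPM. Its call held in 7 of 11 alternative settings, and its log2 ratio was 0.71 without cells named A951. In monocyte-like cells Slc66a1 was 31.3 CPM in the cluster led by Cd300e and Ace and 6.76 CPM in the Ly6c2 cluster, both described below. Slc15a3, a lysosomal carrier of histidine and peptides, was 331 CPM in neutrophil-like, 177 CPM in monocyte-like, 153 CPM in macrophage-like and 1.97 CPM in T cell-like cells. Its relative Slc15a4, which takes part in Toll-like receptor signalling, was 40.2 CPM in B cell-like, 30.8 CPM in monocyte-like and 8.80 CPM in neutrophil-like cells.

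Among carriers of glutamine and other neutral amino acids, Slc1a5, for the sodium-coupled ASCT2, was 101 CPM in B cell-like, 69.0 CPM in T cell-like, 60.7 CPM in NK cell-like, 31.6 CPM in macrophage-like, 31.5 CPM in conventional dendritic-like, 23.5 CPM in monocyte-like and 10.9 CPM in neutrophil-like cells. For Slc1a5 all 3 lymphocyte classes stood above all 4 myeloid classes. Slc38a1, for SNAT1, was 195 CPM in B cell-like cells against 97.2 CPM in all other cells, just under the call. Slc38a2, for SNAT2, which is induced by a shortage of amino acids, lay between 72.3 CPM in macrophage-like and 193 CPM in NK cell-like cells. Slc6a6, the taurine carrier, was 190 CPM in macrophage-like, 132 CPM in monocyte-like and 107 CPM in neutrophil-like cells but 15.6 to 37.0 CPM in the lymphocyte classes.

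Of 6 measured genes of the amino acid stress response to ATF4, 2 were higher in neutrophil-like cells and 2 lower, against 10.5% and 39.7% of all genes. The median log2 ratio of the 6 was -0.32. The higher ones were Sesn2, a leucine sensor, at 83.2 CPM against 10.3 CPM in all other cells and Ddit3, the stress factor CHOP, at 283 against 136 CPM. Of 8 measured glutathione genes, 2 were higher in neutrophil-like cells and 1 lower, against the same shares of all genes. The higher ones were Gsr, glutathione reductase, at 778 CPM against 207 CPM in all other cells and Nfe2l2, the factor NRF2, at 956 against 328 CPM. The summed level of the 9 listed genes was 2032 CPM in neutrophil-like cells against 1360 CPM in monocyte-like and 235 CPM in T cell-like cells. For lysosomal amino acid sensing, 2 of 9 were higher and 0 lower in macrophage-like cells, against 6.71% and 17.9% of all genes. The median log2 ratio was 0.58 against -0.16 over all genes. The higher ones were Lamtor4 at 316 against 152 CPM and Mitf at 42.0 against 16.8 CPM.

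**Figure D4:**
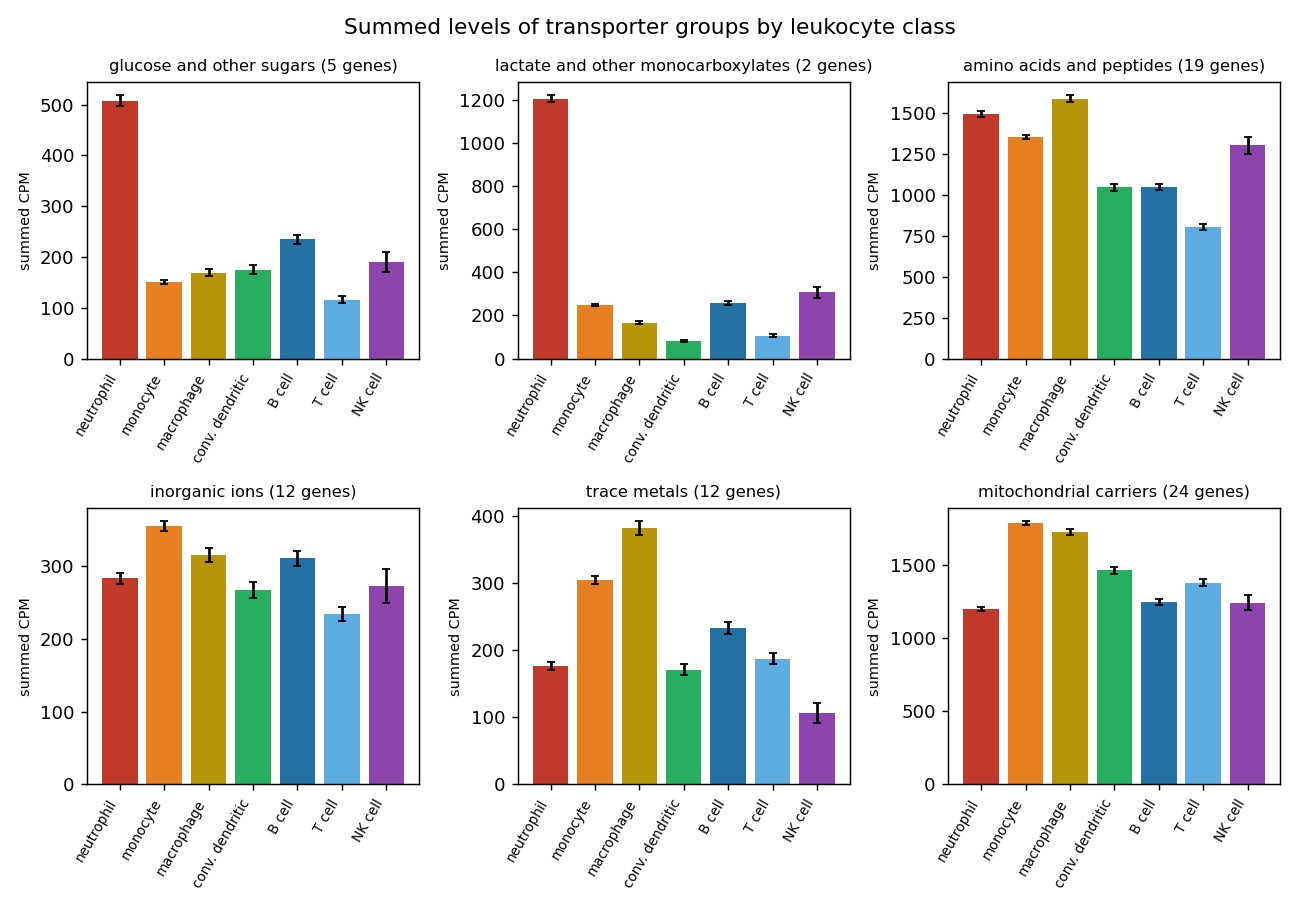
Summed CPM (vertical axes, each from 0) of 6 groups of solute carrier genes in the 7 leukocyte classes (horizontal axes), with exact 95% Poisson intervals. The group of lactate and other monocarboxylates and the glucose group peak in neutrophil-like cells at 1203 and 508 CPM. Trace metal carriers peak in macrophage-like cells at 382 CPM, and inorganic ion and mitochondrial carriers in monocyte-like cells at 355 and 1789 CPM.

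The 12 carriers of inorganic ions had rather even sums, between 234 CPM in T cell-like and 355 CPM in monocyte-like cells, yet single genes were sharply divided. Slc12a2 encodes NKCC1, which carries sodium, potassium and chloride into cells. It was 32.6 CPM in monocyte-like, 8.67 CPM in T cell-like and 0.960 to 2.69 CPM in the other 5 named classes, a ratio of 11.9 between monocyte-like and all other cells (10.1 to 13.9). It was highest in monocyte-like cells in all 4 tags, at 21.0 CPM in A951, 65.1 CPM in A952, 38.7 CPM in A953 and 28.9 CPM in A965.

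Slc8b1, for the mitochondrial sodium-calcium exchanger NCLX, was 68.0 CPM in monocyte-like and 56.7 CPM in macrophage-like cells but 6.51 CPM in B cell-like, 7.05 CPM in T cell-like and 0 in NK cell-like cells. The NK cell-like class held 1959516 counts in all, of which 3 counts would make 1.53 CPM. Slc8a1, for the plasma membrane exchanger NCX1, was 76.8 CPM in monocyte-like, 48.1 CPM in conventional dendritic-like and 38.3 CPM in macrophage-like cells and 1.86 to 2.88 CPM in the 3 lymphocyte classes. Both calcium exchangers were thus low in lymphocytes. Slc20a1, for the phosphate carrier PiT1, was 122 CPM in neutrophil-like cells against 46.5 CPM in all other cells (ratio 2.62, 2.49 to 2.76).

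B cell-like cells led for carriers that set pH. Slc9a7, for the Golgi sodium-proton exchanger NHE7, was 76.7 CPM in B cell-like, 33.9 CPM in conventional dendritic-like and 1.13 to 8.68 CPM in the other 5 named classes, a ratio of 9.07 between B cell-like and all other cells (8.22 to 10.0). Slc4a7, for the sodium-bicarbonate carrier NBCn1, was 95.1 CPM in B cell-like cells against 18.1 CPM in all other cells (ratio 5.24, 4.85 to 5.66). Both were highest in B cell-like cells in the 3 tags with at least 10 such cells, at 59.7, 83.9 and 81.1 CPM for Slc9a7 and 119, 73.5 and 96.5 CPM for Slc4a7 in A951, A953 and A965. Counts of Slc9a7 were uneven, since 1 B cell-like cell held 12.6% of them and the median cell had 0.

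Among 9 measured pump and ion-handling genes, 2 were higher and 5 lower in B cell-like cells, against 16.8% and 22.1% of all genes. The higher ones were Hvcn1, the voltage-gated proton channel, at 386 CPM against 8.43 CPM in all other cells, and Atp1b1 at 28.9 against 10.2 CPM. Atp1b1, a beta subunit of the sodium pump, was 156 CPM in NK cell-like cells against 9.49 CPM in all other cells.

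The 12 trace metal carriers summed to 382 CPM in macrophage-like, 304 CPM in monocyte-like, 233 CPM in B cell-like, 177 CPM in neutrophil-like and 106 CPM in NK cell-like cells. In macrophage-like cells 4 were higher and 0 lower, and in neutrophil-like cells 0 were higher and 7 lower. Over all genes 6.71% were higher and 17.9% lower in macrophage-like cells, and 10.5% higher and 39.7% lower in neutrophil-like cells. Slc48a1, a haem carrier, was 75.6 CPM in macrophage-like cells and 13.8 to 30.3 CPM in the other named classes. A single cell held 31.0% of its macrophage-like counts, and the log2 ratio fell to 1.11 without that cell, against 1.60 with it.

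Slc11a2, for the iron importer DMT1, was 22.5 CPM in macrophage-like cells against 8.44 CPM in all other cells and 0.412 CPM in neutrophil-like cells. The macrophage-like level was not particular to that class. In monocyte-like cells it was 23.0 CPM in the cluster led by Cd300e and Ace and 6.75 CPM in the Ly6c2 cluster, both described below. Slc39a1, for the zinc importer ZIP1, was 37.0 CPM in macrophage-like cells against 14.7 CPM. Slc39a14, for the zinc, iron and manganese importer ZIP14, was 26.7 CPM in macrophage-like cells against 12.4 CPM, but its level was 71.5 CPM in macrophage-like cells named A951 and 8.95 CPM in those named A952. Without A951 cells its log2 ratio was -0.38, so this call rests on that tag.

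Slc30a1, for ZnT1, the zinc exporter of the plasma membrane, was 32.3 CPM in monocyte-like cells against 13.6 CPM in all other cells (ratio 2.38, 2.17 to 2.60). Macrophage-like cells were next for Slc30a1 at 27.1 CPM. Slc30a5, for ZnT5 of the secretory pathway, was 88.6 CPM in B cell-like cells against 14.3 CPM (ratio 6.20, 5.70 to 6.73). The zinc-binding metallothionein genes were also higher in macrophage-like cells, with Mt1 at 4805 CPM against 1724 CPM in all other cells and Mt2 at 1093 against 306 CPM. The zinc list summed to 5918 CPM in macrophage-like, 4155 CPM in conventional dendritic-like, 3614 CPM in monocyte-like, 713 CPM in neutrophil-like and 125 to 178 CPM in the lymphocyte classes. Conventional dendritic-like cells, second for this list, summed to 171 CPM for the trace metal carriers.

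The 24 genes counted as mitochondrial carriers summed to 1789 CPM in monocyte-like, 1730 CPM in macrophage-like, 1467 CPM in conventional dendritic-like and 1201 CPM in neutrophil-like cells. Slc25a5, for the ADP/ATP carrier ANT2, was 727 CPM in monocyte-like, 641 CPM in macrophage-like and 277 CPM in neutrophil-like cells, where it was called lower. Slc25a4, for the related ANT1, was 145 CPM in conventional dendritic-like, 139 CPM in T cell-like and 122 CPM in macrophage-like cells but 18.9 CPM in neutrophil-like cells. Slc25a33, a pyrimidine nucleotide carrier, ran the other way: it was 199 CPM in neutrophil-like cells against 34.9 CPM in all other cells (ratio 5.71, 5.44 to 6.0). Its relative Slc25a36 was 74.6 CPM in B cell-like cells against 22.7 CPM (ratio 3.28, 3.03 to 3.55) and 13.3 CPM in neutrophil-like cells.

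Further members were also divided. In neutrophil-like cells, Slc22a15 was 148 CPM against 12.3 CPM in all other cells (ratio 12, 11.2 to 12.9), Slc27a4, for the fatty acid transport protein FATP4, 47.1 against 5.50 CPM, and Slc35a5 70.0 against 8.61 CPM. Slc9a3r1, for the scaffold protein NHERF1, was 199 CPM in neutrophil-like cells against 57.6 CPM, with NK cell-like cells next at 117 CPM. Slc46a3, a lysosomal carrier, was 32.5 CPM in conventional dendritic-like cells against 8.41 CPM. Slc29a3, for the lysosomal nucleoside carrier ENT3, was 34.1 CPM in macrophage-like cells against 14.0 CPM. For Slc29a3, conventional dendritic-like cells were next at 27.6 CPM, and neutrophil-like cells had 1.34 CPM.

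In T cell-like cells no member reached the call. The largest ratio to all other cells was 2.0 (1.84 to 2.17) for Slc1a5, at 69.0 against 34.5 CPM, which fell below 2 once 1 CPM was added to both. Slc25a38, a glycine carrier used in haem synthesis, was 36.3 against 18.3 CPM and the Golgi zinc carrier gene Slc30a7 34.2 against 17.6 CPM. With every cell weighted alike, 4 members were called higher.

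Calls in the smallest classes rested on few cells. In NK cell-like cells, Slc25a24, an ATP-magnesium/phosphate carrier, was 69.4 CPM against 10.5 CPM in all other cells, with 52.9% of its counts in 1 cell, and Slc35a2, the UDP-galactose carrier, was 54.6 against 10.1 CPM, with 38.3% in 1 cell. With the top NK cell-like cell of each gene left out, 4 members were called higher in that class, against 12 with it. Slc41a1, a magnesium carrier, was 35.5 CPM in conventional dendritic-like cells against 13.7 CPM, with 58.3% in 1 cell, where the log2 ratio of 1.31 became 0.14 once that cell was left out. The 5 measured platelet markers summed to 2967 CPM in macrophage-like cells, of which Pf4, also a macrophage marker, made up 2777 CPM, against 8.7 to 54.3 CPM in the other named classes, where 1 or 2 of the 5 were at 0 in the lymphocyte classes. The 4 mast cell markers summed to 635 CPM in NK cell-like cells, nearly all of it Cma1 at 633 CPM, against 1.4 to 26.1 CPM in the other named classes. The part of these RNAs in the levels was not tested.

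Monocyte-like cells fell into a cluster of 103 cells led by Chil3 and Ly6c2, the mark of classical monocytes, and a cluster of 80 cells led by Cd300e and Ace, with Treml4, genes of patrolling monocytes. In the Ly6c2 cluster 14 members (13.3%) were higher than in the Ace cluster, against 11.2% of all genes, and 21 were lower, against 18.5%, so the members shifted about as genes at large did. Slc12a2 was 2.84 CPM in the Ly6c2 cluster and 112 CPM in the Ace cluster, a ratio of 0.0254 (0.0197 to 0.0326), so that nearly all of the monocyte-like level lay in the Ace cluster. The 10 blood endothelial markers also differed between the clusters, with a sum of 39.8 CPM in the Ly6c2 cluster and 361 CPM in the Ace cluster, where Fabp4 at 160 CPM, Pecam1 at 120 CPM and Flt1 at 71.9 CPM made up most of it. Of the rest of the list, Tek stood at 6.07 CPM and Emcn at 1.01 CPM in the Ace cluster. Cdh5, Kdr, Tie1, Cldn5 and Egfl7 stood at 0.111 to 0.557 CPM there. The part of endothelial RNA in the levels of either cluster was not tested. Slc8a1 was 26.4 CPM in the Ly6c2 cluster and 211 CPM in the Ace cluster, and Slc29a1, for the nucleoside carrier ENT1, was 5.87 and 48.1 CPM in the same clusters.

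Slc15a4 and Slc25a25, an ATP-magnesium/phosphate carrier, also lay below the Ace cluster, at 14.1 CPM in the Ly6c2 cluster against 75.5 CPM and at 5.05 against 42.5 CPM. The zinc importer genes Slc39a14 and Slc39a1 ran the other way, but Slc39a6, for ZIP6, did not, at 14.7 CPM in the Ly6c2 cluster and 21.3 CPM in the Ace cluster. Slc39a14 was 30.6 CPM in the Ly6c2 cluster and 1.23 CPM in the Ace cluster (ratio 25, 13.9 to 50.3), and Slc39a1 was 33.1 and 3.31 CPM in the same clusters. Slc25a4 was 106 CPM in the Ly6c2 cluster and 18.4 CPM in the Ace cluster, and Slc16a6 was 118 and 39.1 CPM. For the lactate exporter the clusters were closer: Slc16a3 was 126 CPM in the Ly6c2 cluster and 216 CPM in the Ace cluster.

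Neutrophil-like cells formed a cluster of 113 cells with Marcksl1, Ccl3 and Icam1 among its leading genes and a cluster of 161 cells led by granule genes such as Retnlg, Ngp and Camp. In the Icam1 cluster 28 members (26.7%) were higher, against 23.2% of all genes, and 14 (13.3%) were lower, against 7.36%. Slc16a3 was 560 CPM in the Icam1 cluster and 958 CPM in the granule cluster, and Slc2a3 was 83.8 and 202 CPM, a ratio of 0.415 (0.379 to 0.453). Slc7a11 at 255 and 215 CPM, Slc2a1 at 127 and 166 CPM and Slc15a3 at 343 and 323 CPM differed less than 2-fold, in the same order of clusters. Both clusters of neutrophil-like cells were thus above every other named class for Slc16a3, Slc2a1, Slc2a3 and Slc7a11.

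Higher in the Icam1 cluster were Slc9a8, for the endosomal sodium-proton exchanger NHE8, at 38.1 CPM against 2.85 CPM in the granule cluster (ratio 13.3, 9.33 to 19.9), Slc4a7 at 21.7 against 2.16 CPM and Slc1a5 at 22.2 against 3.73 CPM. Slc31a2, a homologue of the copper importer, was 52.7 CPM in the Icam1 cluster and 14.3 CPM in the granule cluster. Lower there were Slc25a30 at 4.31 against 22.2 CPM, the choline carrier gene Slc44a1 at 12.1 against 37.0 CPM and Slc25a11, the oxoglutarate carrier, at 28.7 against 73.2 CPM. With the top cell of each gene left out of the Icam1 cluster only, 14 members were higher and 22 lower there. The granule cluster kept its top cells, so this setting tends to lower the ratios and does not treat both clusters alike.

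**Figure D5:**
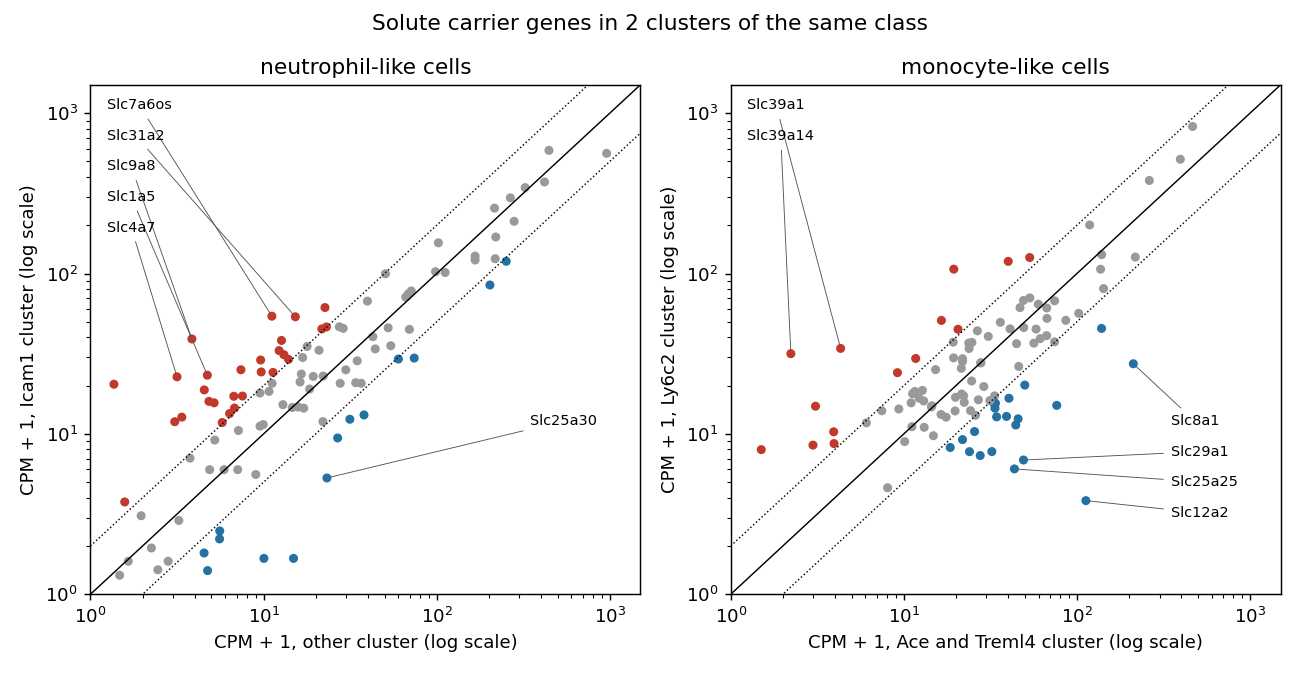
CPM + 1 of the 105 solute carrier genes on log axes, with the Icam1 cluster against the other cluster of neutrophil-like cells (left) and the Ly6c2 cluster against the Ace and Treml4 cluster of monocyte-like cells (right). The solid line marks equal levels and the dotted lines a 2-fold difference. Red points are higher and blue points lower in the cluster on the vertical axis (28 and 14 on the left, 14 and 21 on the right), with the largest differences at 20 CPM or more labelled.

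The 31 unnamed cells differed from all named classes. Their median share of mitochondrial counts was 8.14%, against 1.64% to 3.30% in the named classes, and 45 members (42.9%) were higher in them than in all other cells, against 29.0% of all genes, while 21 were lower, against 32.4%. Slc8a1 was itself among the leading genes of this cluster, at 1079 CPM against 39.3 CPM in all other cells. Slc38a1 was 943 CPM against 90.8 CPM, Slc9a9, for the endosomal sodium-proton exchanger NHE9, 463 against 35.9 CPM and Slc20a1 397 against 53.6 CPM.

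The genes high in the unnamed cells were long. By the RefSeq annotation of GRCm38, the 9 leading genes with a known span had a median of 365 kb, all genes tested 22.8 kb, the 2230 genes higher in these cells 58.2 kb (2174 with a span), the 45 members among them 49.2 kb and the other 60 members 17.9 kb. The cardiomyocyte list summed to 94.1 CPM in the unnamed cells. The part of gene length, mitochondrial share or muscle RNA in these levels was not tested.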

How the data were processed

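Single-cell RNA of 1 pool was captured with BD Rhapsody and made into libraries by TAS-Seq, per the labels' protocols. The authors deposited estimated counts per gene and cell, not normalized, of which 69.8% of values above 0 are whole. The build was GRCm39 and the tools named were STAR, R 4.3.1, STARsolo 2.7.10b and cutadapt 4.1, per the submitters' processing notes, which state no role or order. The sources used here do not say whether molecules or reads were counted, so intervals may be too narrow, or whether strand was used. The hashtag table was not used, and some genes of the lists are not reported here.

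Cells with at least 500 counts, 200 genes and at most 25% mitochondrial counts were kept, which left out 21 of 878. Counts were scaled to 10000 per cell and log-transformed in scanpy 1.11.5 (Python 3.11.15). From 2000 variable genes without Slc genes, 30 components and 15 neighbours, Leiden clustering at resolution 1 gave 10 clusters. A cluster was named when at least 3 markers of a list reached 50 CPM and 2 times the level of other cells and at least 1 stood among its 10 leading genes. That last condition was chosen after seeing the data and left 31 cells unnamed, which had 3 dendritic markers. No doublet caller was run.

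Counts were summed per class and scaled to counts per 1000000 (CPM), with exact Poisson intervals for levels and exact Clopper-Pearson intervals for ratios and shares at 95%. Printed ratios have nothing added, and calls add 1 CPM. The calculation was checked on simulated data. Genes named were the 6 with the highest level in the glucose, lactate, amino acid and ion groups, the 3 highest of other groups, and the 6 with the largest ratio at 20 CPM or more in each class of at least 50 cells and between its clusters. Macrophage-like, conventional dendritic-like and NK cell-like cells, with fewer than 50 cells, were added with class sizes known. Slc11a2, Slc25a33 and Slc39a6 fall outside this rule and were chosen after their values were seen, and some members named by it are also given in classes or clusters other than the one that named them. Members, role groups and lists were chosen with earlier results of these data known. Sequences came from RefSeq (GRCm38.p6), with no coordinates taken from the counts.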

Additional observations from a re-analysis of the deposited data

How the results depend on the processing

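No paired analysis was possible because there was 1 pool and no test. The 18 counts of called members stayed within 1.5 times their value at Leiden resolution 0.5 (where the neutrophil-like cells formed 1 cluster, so 16 counts were given) and 2, with Slc genes allowed in the clustering, with at most 10% mitochondrial counts and without cells named doublet. With 10 CPM added, members called higher were 1 in conventional dendritic-like, 6 in macrophage-like, 1 in monocyte-like cells, 11 in the Icam1 cluster and 6 in the Ly6c2 cluster, and members called lower were 23 in neutrophil-like, 2 in monocyte-like, 7 in macrophage-like, 16 in conventional dendritic-like, 19 in B cell-like, 22 in T cell-like cells, 6 in the Icam1 cluster and 12 in the Ly6c2 cluster. With Slc genes of at least 100 counts, which adds genes, those higher were 28 in neutrophil-like, 16 in monocyte-like, 28 in macrophage-like, 15 in conventional dendritic-like, 25 in B cell-like, 19 in T cell-like and 30 in NK cell-like cells and 31 in the Ly6c2 cluster, and those lower were 82, 36, 42, 70, 55, 66 and 86 in the same order of classes, 26 in the Icam1 cluster and 42 in the Ly6c2 cluster. The top cell of each gene was also left out of the class or cluster named. The cells set against it were all kept, which tends to lower ratios. Those higher were then 3 in monocyte-like, 7 in macrophage-like, 1 in conventional dendritic-like and 4 in NK cell-like cells and 14 in the Icam1 cluster. Those lower were 28 in macrophage-like and 66 in NK cell-like cells and 22 in the Icam1 cluster. With each cell weighted alike, those higher were 14 in monocyte-like, 7 in conventional dendritic-like and 4 in T cell-like cells. Alternatives added after seeing the data gave, with the unnamed cells counted as conventional dendritic, 12 higher and 14 lower in that class, without the unnamed cells 1 higher in T cell-like cells, and without cells named A951 7 higher in conventional dendritic-like and 2 in T cell-like cells. Members higher in neutrophil-like cells numbered 16 to 19 under every alternative but the 100-count one. Of the recomputed log2 ratios of named members, 252 moved by more than their counting error, 572 did not and 1 changed sign after a call, that of Slc39a14 in macrophage-like cells without A951, at -0.38. The cause was not tested in these cases. Depth limits genes of few counts and the classes under 50 cells, where 1 cell can hold most counts.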

Other observations

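The genes named here come from the pathway lists and were chosen after their values were seen. Glud1, glutamate dehydrogenase, was 275 CPM in monocyte-like cells against 117 CPM in all other cells, and Pdha1, a subunit of pyruvate dehydrogenase, was 84.9 against 33.4 CPM there. Pdk1, a kinase that inhibits that enzyme, was 42.6 CPM in T cell-like cells against 9.63 CPM, and Phgdh, the entry to serine synthesis, was 34.9 CPM in B cell-like cells against 5.59 CPM in all other cells, and 34.5 CPM in T cell-like cells. Hmox1, the haem oxygenase, was 592 CPM in macrophage-like cells against 131 CPM. Tfeb, a factor of lysosomal genes, was 65.3 CPM in neutrophil-like cells against 22.6 CPM.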
